A study of Mus musculus with 10 samples.

Results

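The spleen and the bone marrow of NSG mice carrying transplanted leukaemia were compared clone by clone. Each clone was followed by a DNA barcode in its genome. NSG mice are immunodeficient recipients that lack mature T, B and natural killer cells. The 4 samples were bone marrow and spleen at disease for each of 2 donors, paired by the donor mouse number. A barcode was included if it reached 100 CPM (the unit of a barcode's share of a sample's reads, in which 10000 CPM is 1%) in at least 1 of these 4 samples. This gave 1386 clones, of 19704 barcodes listed and 11601 with any read in the series. There were 788 from the mCHERRY pool of barcodes, 582 from the BFP pool and 16 from the GFP pool. Of these, 693 passed in donor 1 and 699 in donor 2, and only 6 passed in both, so the donors held almost separate sets of clones.

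In the study, c-Kit+ haematopoietic progenitors were cultured and transduced with the SPLINTR barcode pools, and MLL-AF9 leukaemia cells of 2 donor mice were transplanted into NSG or PTPRCA recipients. PTPRCA mice carry a variant of Ptprc, the gene of a leukocyte surface phosphatase, and have an intact immune system. The series has 10 samples: marrow and spleen of each strain for both donors, and 1 baseline sample per donor. All samples, the baselines included, are of MLL-AF9 cells with barcodes. Viable sorted cells were lysed and each lysate was divided into technical replicates for PCR. The labels name the donor but not the recipient. They do not say how many recipients stand behind a sample, or whether a marrow and a spleen came from the same animal. They give no recipient age or sex, and sorted cells read by barcode carry no expression values, so the organ labels could not be checked against marker genes.

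MLL-AF9 is a fusion of a chromatin regulator with a transcription elongation factor, and it turns blood progenitors into leukaemia cells that can be passed between mice. The marrow is where haematopoietic stem and progenitor cells normally reside. The mouse spleen also supports blood formation and is commonly filled by transplanted leukaemia. Because a barcode is inherited by all daughters of the cell that received it, its share of reads estimates the share of the leukaemia that descends from that cell. The values are shares within a sample, so growth of 1 clone and loss of the others cannot be told apart.

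Each deposited value was a mean over 2 to 4 sequenced libraries of a sample, whose read totals could be read from the spacing of the low values. The NSG marrow samples held 5171235 reads (donor 1, 2 libraries) and 10394809 reads (donor 2, 4 libraries). The NSG spleen samples held 8606343 reads (donor 1, 3 libraries) and 8468238 reads (donor 2, 2 libraries). A barcode listed at 0 could thus have a share of up to 0.58 CPM in the shallowest of the 4 (3 reads) and 0.289 CPM in the deepest. The 95% Wilson interval of a large share, such as that of the leading clone, was at most 0.0427 percentage points to either side. Both allow for counting error alone, as reads amplified by PCR are not independent molecules. In donor 1's spleen, 1 of the 3 libraries held many barcodes that the other libraries of that sample did not, and the main measures of donor 1 are given with and without them.

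Most leukaemia in both organs belonged to clones that both organs held. In donor 1, 400 of 693 clones (57.7%) reached 100 CPM in marrow and spleen, and in donor 2, 387 of 699 did (55.4%). These shared clones made up 92.4% of marrow reads and 93.8% of spleen reads in donor 1. In donor 2 they made up 93.1% and 93.7%. Clones that passed 100 CPM in marrow alone were 171 and 174 (donors 1 and 2), and held 4.3% and 3.99% of marrow reads. Those that passed in spleen alone were fewer in each donor, at 122 and 138, and held 2.68% and 3.57% of spleen reads. Without barcodes of a single library, donor 1 had 397 of 675 clones in both organs (58.8%) and 107 in spleen alone. Falling below the threshold in an organ was rarely absence from it. Marrow-only clones had a median of 162 and 168 CPM in marrow and still of 35.0 and 38.7 CPM in spleen. Spleen-only clones had a median of 165 and 168 CPM in spleen and of 43.0 and 42.0 CPM in marrow.

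**Figure D1:**
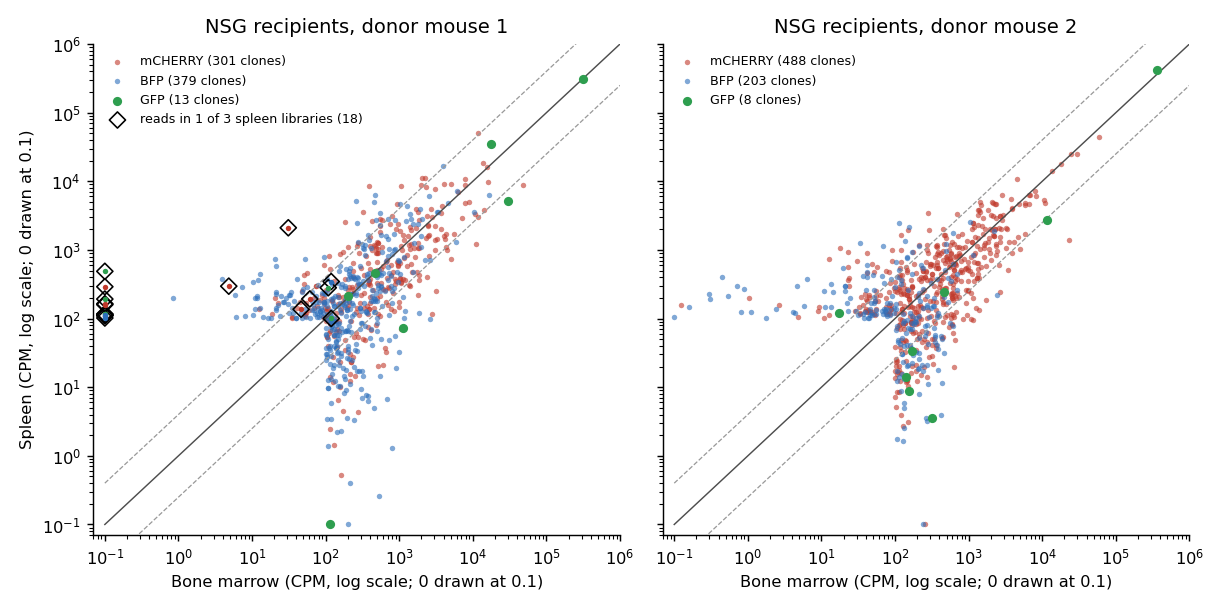
Each point is 1 of the clones with at least 100 CPM in either NSG organ, placed by its CPM in bone marrow (horizontal) and in spleen (vertical) on log axes, 1 panel per donor, coloured by barcode pool. The solid line marks equal shares and the dashed lines 4-fold differences, values of 0 are drawn at 0.1, and diamonds mark the 18 clones read in 1 of the 3 libraries of donor 1's spleen. The clouds follow the diagonal with wide scatter: the rank correlation is 0.546 in donor 1 and 0.495 in donor 2.

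The threshold itself cut through a continuum. In donor 1, BFP_Barcode_386855 entered with 61.2 CPM in marrow and 100.0 CPM in spleen, while BFP_Barcode_196990 stayed out with 99.6 CPM in marrow and 13.0 CPM in spleen. In donor 2, mCHERRY_2_Barcode_393007 entered with 100.0 CPM in marrow and 7.16 CPM in spleen, while mCHERRY_2_Barcode_175923 stayed out with 81.5 and 99.7 CPM. Clones on either side of the threshold thus had organ ratios of both kinds, near 1 and far from it.

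Clones restricted to an organ, meaning at least 100 CPM in it and fewer than 3 reads in the other, were rare. Donor 1 had 3 such clones in marrow and 11 in spleen, together 2.02% of its clones. Donor 2 had 2 in marrow and 3 in spleen, or 0.715%. In PTPRCA recipients no clone met this definition in either donor. The NSG clones were small: the marrow-restricted ones had 113 to 527 CPM in donor 1 and 236 to 252 CPM in donor 2, and the spleen-restricted ones 102 to 488 CPM and 104 to 160 CPM.

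The 11 spleen-restricted clones of donor 1 had another property in common. Each had a value that is a whole multiple of what 1 read is worth in a single library, that of 3581938 reads, which is the pattern of a barcode read in that library and in neither of the other 2. The largest, GFP_Barcode_40977, had 488 CPM in donor 1's spleen and 0 CPM in donor 1's marrow and baseline. The next, mCHERRY_2_Barcode_91281, had 291 CPM in that spleen and 0 CPM in the marrow. None of the 11 had 3 reads at baseline. Without barcodes of a single library, 3 of 675 clones in donor 1 were restricted, all to marrow, and 5 of 699 in donor 2, with 2 in marrow and 3 in spleen.

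These barcodes were a sizeable set in that library. Of 1345 barcodes between 10 and 10000 CPM in donor 1's spleen, 214 (15.9%) had the single-library pattern, against 2 and 0 in the other libraries of the sample. They held 1.43% of the sample's reads, with a median of 42.7 CPM, and 18 were among the clones of 100 CPM or more. Their pool composition differed from that of the other 1131 barcodes: 63 were GFP (29.4%), against 9 (0.796%). In donor 1's marrow 184 of the 214 were listed at 0, against 11 of the 1131, and 144 were at 0 in all of the other samples of the series. Of the 205 barcodes with at least 10 CPM in donor 1's spleen and fewer than 3 reads in its marrow, 185 had the pattern. The 2 libraries of donor 1's marrow had 27 and 33 such barcodes, none of which reached 100 CPM, and the NSG samples of donor 2 had at most 1 per library. Where these barcodes came from was not tested.

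**Figure D2:**
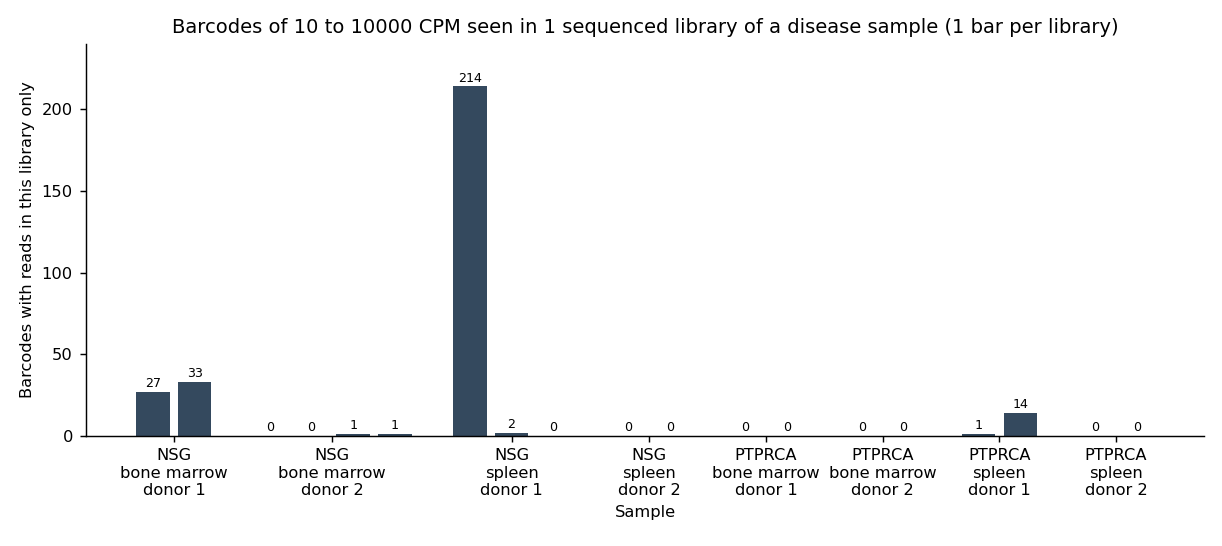
Bars give the number of barcodes of 10 to 10000 CPM whose value is a whole multiple of the step of 1 sequenced library, for the libraries of each NSG and PTPRCA sample. A single library of donor 1's NSG spleen stands out with 214 such barcodes, and the next highest NSG count is 33.

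The restricted clones that did not depend on a single library were few enough to name. In donor 1, BFP_Barcode_459913 had 203 CPM in marrow, 0 CPM in spleen and 107 CPM at baseline, so its marrow share was at least 582-fold higher. BFP_Barcode_80937 had 527 CPM in marrow and 0.263 CPM in spleen. GFP_Barcode_18532, the third, had 113 and 0 CPM. In donor 2, mCHERRY_2_Barcode_29524 had 252 CPM in marrow, 0 CPM in spleen and 3484.4 CPM at baseline, at least 710-fold higher in marrow. BFP_Barcode_172951 had 236 CPM, 0 CPM and 795 CPM in the same order, at least 666-fold higher in marrow. Both marrow clones of donor 2 were therefore larger at baseline than in either organ. The spleen clones of donor 2 with the largest values, mCHERRY_2_Barcode_916192 with 160 CPM and BFP_Barcode_113452 with 145 CPM, had 0.123 and 0.157 CPM in marrow. With a looser limit of 10 CPM in the other organ, restricted clones were 31 in marrow and 18 in spleen for donor 1, and 21 and 23 for donor 2. The 18 in donor 1's spleen became 6 without barcodes of a single library. The same counts in PTPRCA recipients were 12 and 7, and 3 and 1.

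A single clone, GFP_Barcode_52804, led both organs in both donors. It held 31.4% of marrow reads and 30.9% of spleen reads in donor 1, and 36.6% and 42.2% in donor 2. The organ ratio was 1.02 in donor 1, with marrow higher, and 1.15 in donor 2, with spleen higher. Its share at baseline was already 297738.8 CPM in donor 1 and 367349.3 CPM in donor 2, so the same barcode was as large there.

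Below it, the donors differed in how alike the leading clones were in the organs. In donor 1, 18 clones reached 1% of reads in an organ: 5 in both, 9 in marrow alone and 4 in spleen alone. Of the 18, 7 were more than 4-fold apart, and their rank correlation between organs was 0.162. In donor 2, 11 clones reached 1%: 6 in both, 4 in marrow alone and 1 in spleen alone. Here 2 of 11 were more than 4-fold apart and the rank correlation was 0.709. None of these leading clones was missing from an organ, the lowest share in the other organ being 0.12% in donor 1 and 0.139% in donor 2.

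In donor 1 the order of the next clones turned over between organs. mCHERRY_2_Barcode_663729 held 1.17% of marrow (rank 10) and 5.11% of spleen (rank 2), a 4.37-fold difference. mCHERRY_2_Barcode_8041 went the other way, with 4.79% of marrow (rank 2) and 0.893% of spleen (rank 13), or 5.36-fold. GFP_Barcode_98919 held 2.99% of marrow (rank 3) and 0.511% of spleen (rank 26), or 5.85-fold. Of these 4 clones, GFP_Barcode_52357 alone, with 1.76% (rank 4) and 3.52% (rank 3), stayed within the first 4 ranks of both organs. In donor 2 the 4 clones next to the leading one by mean share kept close to their ranks. mCHERRY_2_Barcode_311488 held 5.98% of marrow and 4.4% of spleen. mCHERRY_2_Barcode_187286 held 2.93% and 2.49%, mCHERRY_2_Barcode_96127 2.46% and 2.53%, and mCHERRY_2_Barcode_529484 1.77% and 1.81%. Their organ ratios were between 1.02 and 1.36. At baseline these 4 clones of donor 2 had 772 to 1553.6 CPM. Further down, large shifts occurred in donor 2 as well: mCHERRY_2_Barcode_289696 ranked 5 in marrow and 83 in spleen, and GFP_Barcode_40977 ranked 8 and 42.

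**Figure D3:**
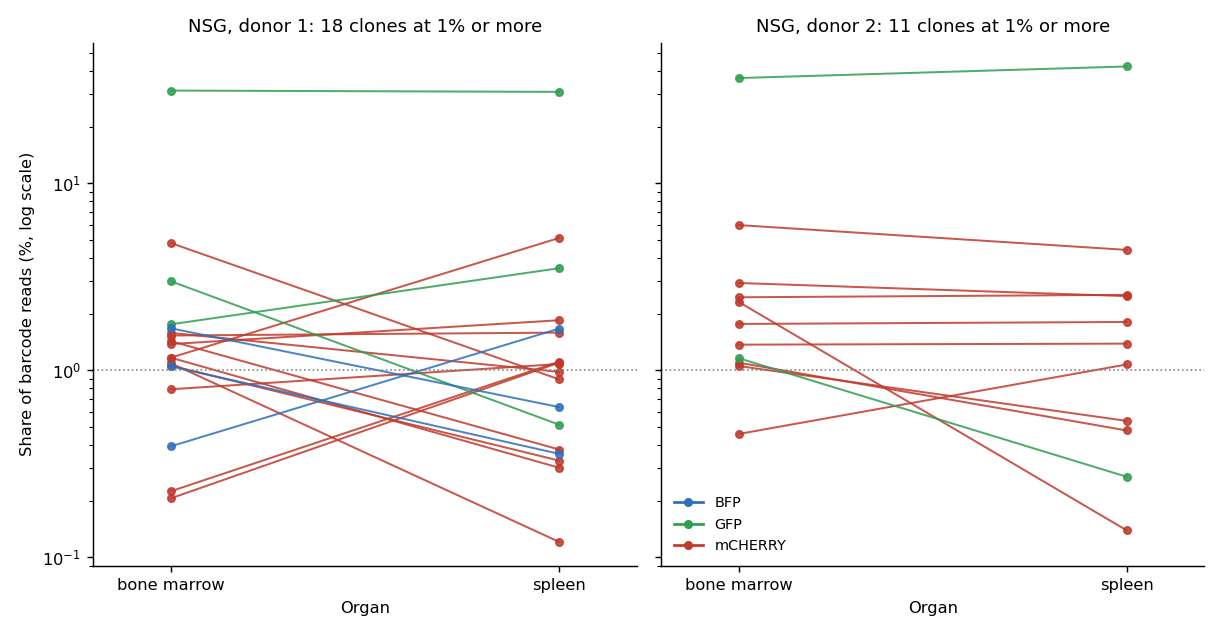
Shares of reads (percent) in bone marrow and spleen of the clones that held at least 1% in an NSG organ, 1 panel per donor, on a log axis, with a line joining the organs of each clone, coloured by barcode pool. Lines cross often in donor 1, where 7 of 18 clones differ more than 4-fold, and less in donor 2, where 2 of 11 do.

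Over clones with at least 100 CPM in either organ, abundance in an organ was only a moderate guide to abundance in the other. This threshold leaves out clones low in both organs and lets some in through their higher organ alone, which can lower a correlation. From 10 CPM the Spearman correlation was 0.519 in donor 1 and 0.624 in donor 2, and from 1000 CPM 0.304 and 0.424. At 100 CPM it was 0.546 over 693 clones in donor 1 and 0.495 over 699 in donor 2. It was 0.564 in donor 1 without barcodes of a single library. Over clones that passed 100 CPM in both organs it was 0.636 (400 clones) and 0.602 (387 clones). Of the 10 largest clones of each organ, 6 were the same in donor 1 and 6 in donor 2. Among the 20 largest, 9 and 14 were the same, and among the 50 largest, 29 and 28. The points of each correlation share their libraries and total, so these are descriptions without a test.

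About 3 in 10 clones differed more than 4-fold between organs, on the scale of log2(CPM + 10), which understates ratios of rare clones. The threshold let some clones in through their higher organ alone, which can raise this share. With a mean over the organs below 100 CPM, 47.2% (donor 1) and 50.0% (donor 2) were more than 4-fold apart. From 100 to 1000 CPM it was 28.0% and 30.2%. In donor 1, 91 clones (13.1%) were more than 4-fold higher in spleen and 127 (18.3%) more than 4-fold lower. In donor 2, 91 (13.0%) were higher and 126 (18.0%) lower. More clones were lower than higher in spleen in each donor, and the median log2 ratio of spleen to marrow was -0.21 and -0.18. Shares sum to a fixed total, so a larger leading clone lowers all others. GFP_Barcode_52804 held 36.6% of marrow and 42.2% of spleen in donor 2, and 31.4% and 30.9% in donor 1. Its part in these medians was not tested. Without barcodes of a single library, donor 1 had 78 higher (11.6%) and 127 lower (18.8%). The median absolute difference over all clones was 1.3 log2 units in donor 1 and 1.31 in donor 2. The pseudocount matters here: with 100 CPM in place of 10, 8.34% of clones on average over the donors were more than 4-fold apart, against 31.3%.

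The size of the organ difference was set against clone size, taken as the mean over the organs. Clones below a mean of 100 CPM (127 and 124) are left out, because the threshold let them in through their higher organ alone. From 100 to 1000 CPM the median absolute log2 differences were 1.18 in donor 1 and 1.27 in donor 2. From 1000 to 10000 CPM they were 1.25 and 0.92. The donors parted at 10000 CPM or more, with 1.2 over 10 clones in donor 1 and 0.21 over 7 clones in donor 2. The medians thus fell with clone size in donor 2, whereas in donor 1 they lay between 1.18 and 1.25 throughout.

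The strongest skews among clones of at least 1000 CPM ran in both directions. In donor 1, mCHERRY_2_Barcode_284293 had 390 CPM in marrow and 8556.3 CPM in spleen, a 21.9-fold difference, and BFP_Barcode_252027 had 256 and 5131.6 CPM. The most skewed of all, mCHERRY_2_Barcode_805948 with 31.1 and 2101.0 CPM, had its spleen reads in a single library. Towards marrow, BFP_Barcode_26539 had 2594.0 CPM in marrow and 98.2 CPM in spleen (26.4-fold), mCHERRY_2_Barcode_1073995 had 2809.5 and 118 CPM, and BFP_Barcode_17 had 1840.8 and 120 CPM. These marrow-skewed clones were present in spleen at ranks of 468 to 526.

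In donor 2, mCHERRY_2_Barcode_188880 had 17.8 CPM in marrow and 1068.4 CPM in spleen (60.1-fold), BFP_Barcode_305306 had 32.9 and 1268.7 CPM, and BFP_Barcode_140419 had 113 and 2441.2 CPM. Skewed to marrow was mCHERRY_2_Barcode_289696, with 23241.8 CPM in marrow, where it ranked 5, and 1389.7 CPM in spleen, where it ranked 83. It was the 1 clone of donor 2 above 10000 CPM on average that differed more than 4-fold, at 16.7-fold. mCHERRY_2_Barcode_157078 had 1143.3 and 94.5 CPM, and BFP_Barcode_268656 had 2457.2 and 219 CPM.

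Because donors shared so few barcodes, replication of a clone's organ difference across donors could hardly be assessed. With limma on log2(CPM + 10) over all 10 samples, 0 of 3443 clones were called for NSG spleen against marrow at an adjusted p below 0.05 (0.0%), and 0 had an unadjusted p below 0.05. With the donor as a block, limma again called 0 and gave 3 clones an unadjusted p below 0.05, and with a block for each donor and strain pair the numbers were 0 and 1. The smallest adjusted p in limma over all settings was 0.848. On simulated data with donors alike and a noise SD of 0.5 log2 units per value, limma recovered 84% of 4-fold changes shared by both donors. It recovered 0% when the changes were placed in data with donors as far apart as here, without a block or with the donor as a block. The block for each donor and strain pair was not simulated. The measured organ differences had an SD over clones of 1.97 (donor 1) and 1.94 (donor 2) log2 units, so the 84% belongs to quieter data. Only 52 clones had a difference other than 0 in both donors, and 28 of them had the same sign.

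The 6 barcodes that passed in both donors illustrate this. GFP_Barcode_52357 was 1.76% and 3.52% (marrow and spleen) in donor 1 but 460 and 246 CPM in donor 2, so the order of the organs turned. GFP_Barcode_18532 was higher in marrow in both, with 113 and 0 CPM in donor 1 and 171 and 33.9 CPM in donor 2. GFP_Barcode_40977, the single-library clone of donor 1's spleen, had 11608.8 CPM in marrow and 2690.8 CPM in spleen of donor 2. GFP_Barcode_19949 and mCHERRY_2_Barcode_382334 also rested on a single library in donor 1's spleen, at 281 and 160 CPM, and had 153 and 129 CPM in donor 2's marrow. So 3 of the 6 passed in donor 1's spleen on a single library, though GFP_Barcode_19949 also passed in donor 1's marrow, at 108 CPM. The sixth is the leading clone, GFP_Barcode_52804.

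Some other barcodes lay on the same side in both donors without passing in both. GFP_Barcode_98919 had 29908.2 and 5109.1 CPM in donor 1 and 66.9 and 2.38 CPM in donor 2. BFP_Barcode_565785 had 25.9 and 0 CPM in donor 1 and 284 and 11.3 CPM in donor 2, again lower in spleen. BFP_Barcode_100420 was higher in spleen, with 76.7 and 90.4 CPM, and 0.812 and 123 CPM. The other barcodes named by the same rule, GFP_Barcode_5999 with 192 CPM and mCHERRY_2_Barcode_632375 with 111 CPM, had their donor 1 spleen reads in a single library.

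The differences between organs were set against those between technical libraries of an organ, where values up to 1000 CPM could be separated into 2 libraries. In donor 1's marrow, 436 clones of 100 to 1000 CPM differed by a median of 0.64 log2 units between the 2 libraries and by 1.24 between the organs. More than 4-fold apart were 4.59% of them between libraries and 28.7% between organs. In donor 2's spleen the 2 libraries were nearly alike, with a median of 0.044 over 401 clones against 1.12 between organs, and 0.0% against 22.7%. The rank correlation between libraries was 0.619 in donor 1's marrow and 0.995 in donor 2's spleen. Donor 1's marrow libraries taken singly had correlations of 0.493 and 0.373 with the spleen. Of clones more than 4-fold apart between organs, 142 of 186 (76.3%) in donor 1 remained so against each marrow library separately, and 189 of 195 (96.9%) in donor 2 against each spleen library. Among these clones, then, the organs differed by more than these 2 libraries did in both donors, with a smaller margin in donor 1. The clones of 100 to 1000 CPM were chosen by their value in the organ with 2 libraries. That choice can widen the difference from the other organ more than the difference between libraries, and its part was not tested. The libraries of donor 1's spleen and donor 2's marrow numbered more than 2 and were not separated. Libraries of a sample can differ as much as the NSG organs did: in donor 1's PTPRCA spleen, 263 clones of 100 to 1000 CPM differed by a median of 1.23 log2 units between its 2 libraries, and 30.0% were more than 4-fold apart. Larger clones were not separated into libraries, and the libraries share a lysate, so they carry no spread between animals.

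**Figure D4:**
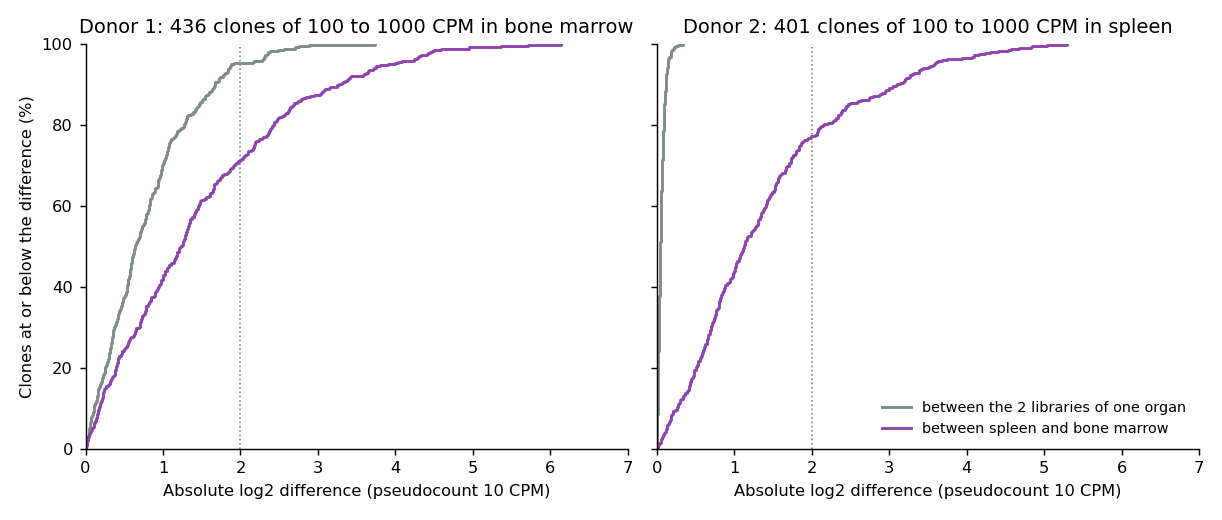
Cumulative distribution (percent of clones) of the absolute log2 difference of clones of 100 to 1000 CPM, between the 2 sequenced libraries of an organ and between the organs, for donor 1 (marrow libraries) and donor 2 (spleen libraries). The dotted line marks a 4-fold difference. Among these clones, chosen by their value in the organ of the 2 libraries, organ differences exceed library differences in both donors. Medians are 1.24 against 0.64 and 1.12 against 0.044.

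The effective number of clones was lower in spleen than in marrow in both donors, by little in donor 1. This number, which is how many equal clones would give the same Shannon entropy, was 78.4 in marrow and 76.2 in spleen of donor 1, and 56.9 and 46.3 in donor 2. The log2 difference of spleen from marrow was -0.17 ± 0.183 (SD, n = 2), with an exact permutation p of 0.5 (two-sided), the smallest that 2 donors allow. Without barcodes of a single library, donor 1 had 77.2 in marrow and 70.2 in spleen, its log2 difference went from -0.0399 to -0.138, and the mean became -0.218. The inverse Simpson number, which weights large clones more, was 9.54 and 9.79 in donor 1 (9.5 and 9.51 without barcodes of a single library) and 7.08 and 5.46 in donor 2. Clones of at least 100 CPM numbered 571 in marrow and 522 in spleen of donor 1, and 561 and 525 in donor 2.

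The leading clone set the order of the effective number in donor 2. Without GFP_Barcode_52804 the effective numbers were 232 in marrow and 216 in spleen of donor 1, but 208 and 235 in donor 2, and the mean log2 difference changed sign to 0.0329. With barcodes of a single library also left out, donor 1 had 229 and 197, and the mean was -0.02, again negative. The head of the distribution was short everywhere: 11 and 12 clones (marrow and spleen) made up 50% of reads in donor 1, and 5 and 4 in donor 2. Reaching 90% took 253 and 215 clones in donor 1, and 231 and 213 in donor 2, fewer in spleen each time. In donor 1 it took 249 and 191 without barcodes of a single library. Gini coefficients over clones of 100 CPM or more were 0.799 and 0.806 in donor 1, and 0.814 in each organ of donor 2.

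**Figure D5:**
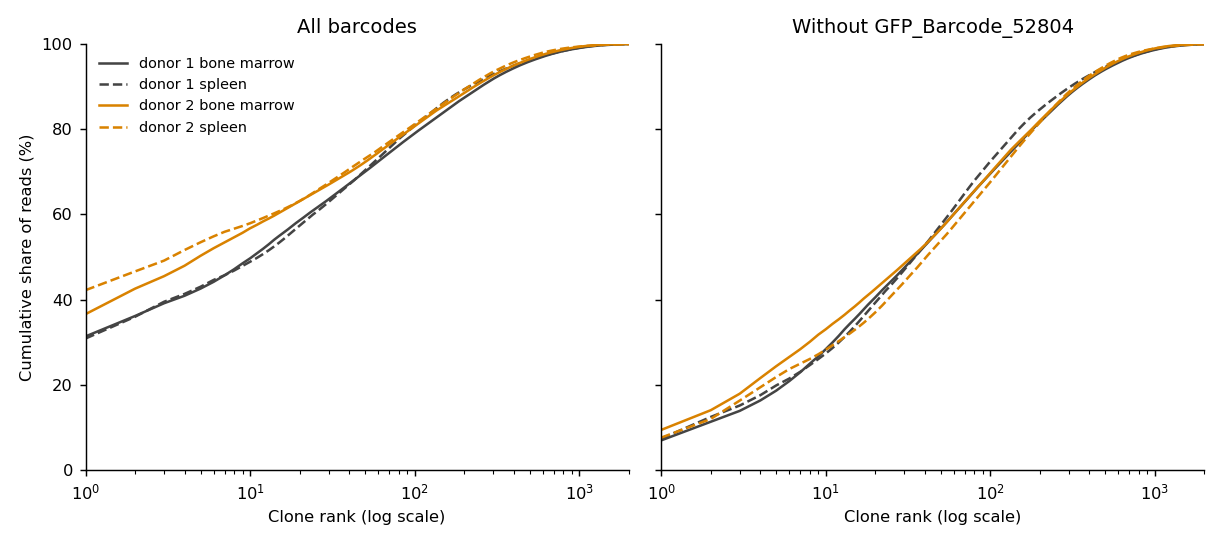
Cumulative share of reads (percent) against clone rank on a log axis, for marrow (solid) and spleen (dashed) of each donor, with all barcodes on the left and without GFP_Barcode_52804 on the right. With all barcodes, curves start at the share of the leading clone, 30.9% to 42.2%, and in each donor the spleen curve reaches 90% at fewer clones than the marrow curve.

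The barcode pools were carried in similar proportion by both organs. BFP clones held 19.9% of marrow and 22.0% of spleen reads in donor 1, and 5.3% and 6.18% in donor 2. mCHERRY clones held 43.7% and 42.6%, and 56.8% and 51.3%. GFP clones held 36.5% and 35.4%, and 37.9% and 42.6%, most of it the leading clone. BFP was higher in spleen and mCHERRY lower in both donors, by 0.184 ± 0.0534 and -0.0911 ± 0.0798 log2 units (SD, n = 2). The exact permutation p was 0.5 for each (0.75 adjusted over the 3 pools), and 2 donors can give no smaller raw p. GFP moved in opposite directions in the donors (exact permutation p = 1.0, adjusted 1.0). Without GFP_Barcode_52804 it was lower in spleen in both, with 5.09% and 4.51% in donor 1 and 1.32% and 0.333% in donor 2. Few clones set these values. In donor 2 most of both was GFP_Barcode_40977 (1.16% and 0.269%). In donor 1 GFP_Barcode_98919 was lower in spleen (2.99% and 0.511%) and GFP_Barcode_52357 higher (1.76% and 3.52%). Without the largest clone of each pool and sample, the mean differences of BFP and mCHERRY were 0.245 and -0.0328 log2 units. The mCHERRY difference was then -0.0554 in donor 1 and -0.0102 in donor 2, against -0.0347 and -0.147 over all clones.

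Clones of the pools differed in how often both organs held them. In donor 1, 216 of 301 mCHERRY clones (71.8%) and 177 of 379 BFP clones (46.7%) passed in both organs. In donor 2 it was 327 of 488 (67.0%) and 57 of 203 (28.1%). More than 4-fold differences were in turn found for 27.6% of mCHERRY and 33.8% of BFP clones in donor 1, and for 23.8% and 46.8% in donor 2. The pools were not matched for clone size. The 13 and 8 GFP clones were too few to describe beyond their counts, with 7 and 3 in both organs.

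Clones that passed in spleen alone were seldom common at baseline. In donor 1, 31.5% of clones that passed in both organs had at least 100 CPM at baseline, against 27.5% of marrow-only clones (47 of 171) and 7.38% of spleen-only clones (9 of 122). In donor 2 the shares were 57.1%, 32.2% (56 of 174) and 15.2% (21 of 138). Over all clones it was 26.3% (182 of 693) in donor 1 and 42.6% (298 of 699) in donor 2. Marrow-only clones were near that share in donor 1 and below it in donor 2, and spleen-only clones were below it in both. Spleen-only clones were thus the ones least often common at baseline in each donor, by 20.1 and 17.0 percentage points against marrow-only clones. The order was the same within the BFP and mCHERRY pools: 19.8% against 6.17% and 45.8% against 10.8% in donor 1, and 14.9% against 5.56% and 44.8% against 24.6% in donor 2. Without barcodes of a single library the donor 1 difference was 19.1 points. In PTPRCA recipients the same difference was -1.06 and -1.46 points. At a limit of 10 CPM the NSG differences were 8.8 and 5.9 points and the PTPRCA ones 2.2 and -4.32, so the PTPRCA donors then lay on opposite sides. At 100 CPM the strains differed by 19.8 points on average, and the exact permutation p of exchanging strains within donors was 0.5 (two-sided), the smallest possible. This comparison was chosen after the values had been seen.

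The NSG organs were closer together than the PTPRCA organs, or alike, by reads in common, and further apart by percentages of clones. The PTPRCA values of donor 1 include the spleen whose 2 libraries differed most, and its part in them was not tested. The Bray-Curtis similarity of spleen and marrow, the share of reads that clones have in common, was 0.7 for NSG in donor 1 and 0.788 in donor 2. For PTPRCA it was 0.626 and 0.786. NSG had 0.706 in donor 1 without barcodes of a single library. Setting the leading clone aside, NSG had 0.568 and 0.7, and PTPRCA had 0.568 and 0.698. NSG minus PTPRCA was then of opposite sign in the donors, at -0.000268 and 0.0019. NSG and PTPRCA organs of a donor were less alike, at 0.48 to 0.67, and organs of different donors had 0.211 to 0.338, nearly all from the leading clone. The percentage of clones that passed in both organs was 60.1% and 66.5% in PTPRCA, and NSG minus PTPRCA was -2.4 and -11.1 points. Clones more than 4-fold apart were 29.8% and 16% in PTPRCA, against 31.5% and 31.0% in NSG. The exact permutation p for the strains was 0.5 (two-sided) for each of these 3 measures with the leading clone included, which is the smallest possible.

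Which organ a clone favoured in NSG bore little relation to which it favoured in PTPRCA recipients of the same donor. Over clones with at least 100 CPM in an organ of each strain, the correlation of the log2 organ differences was 0.0968 in donor 1 (320 clones) and -0.0164 in donor 2 (346 clones). Of 25 such clones more than 4-fold higher in NSG spleen in donor 1, 5 were also more than 4-fold higher in PTPRCA spleen. In donor 2 it was 4 of 31. These are 20.0% and 12.9%, where 7.5% and 4.62% of all compared clones were that much higher in PTPRCA spleen. Of clones more than 4-fold lower in NSG spleen, 8 of 39 and 4 of 34 were also lower in PTPRCA spleen, or 20.5% and 11.8%, where 16.9% and 11% of all compared clones were. Some went more than 4-fold the opposite way. Of clones higher in NSG spleen, 2 of 25 and 5 of 31 were that much lower in PTPRCA spleen. Of those lower in NSG spleen, 8 of 39 and 1 of 34 were that much higher in PTPRCA spleen. GFP_Barcode_98919 in donor 1 was an example of opposite order, with 2.99% of marrow and 0.511% of spleen in NSG and 0.965% and 8.23% in PTPRCA. mCHERRY_2_Barcode_8041 had the same order in both strains, 4.79% and 0.893% in NSG and 4.49% and 3.55% in PTPRCA. Both strains of a donor were transplanted from cells of that donor, so the clones compared are the same barcodes.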

How the data were processed

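Barcode DNA was amplified from lysed sorted cells and sequenced, per the labels' protocols. The submitters' processing notes name Bowtie 1.2.2 and R 3.6; their roles and the filters used were not given in the sources used here. CPM values were deposited by the authors for 19704 barcodes in 10 samples, and no column belongs to another sample (0). The deposited CPM of a sample is a mean over 2 to 4 libraries: low values are sums of whole multiples of each library's step, to within 0.00972 of a whole number, and give library totals of 1591539 to 4475416 reads. Since a mean of libraries does not return 1 count per sample, no count test was run. Values up to 1000 CPM were separated into libraries where there were 2. A barcode of 10 to 10000 CPM that is a multiple of 1 library's step alone was taken as read in that library only. The step search was tested on simulated data.

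Clones were compared within donors. Organs pair by the donor number in the labels; deviations from the group means of same-numbered NSG organs correlated at 0.918 over 3443 clones. limma 3.58.1 (R 4.3.3; trend, log2(CPM + 10), Benjamini-Hochberg adjustment, threshold 0.05) was fitted to clones with at least 100 CPM in any of the 10 samples, and tested on simulated data. Whole-sample values used exact permutation over donors (Python 3.11.15, scipy 1.17.1). With 2 donors its p-value records only whether both differences have the same sign (0.5 if they do), not their size or spread. Differences between these 2 donors may be technical. The members, lists and measures were chosen with earlier results of these data known.

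Named clones were, per donor, the 5 largest by mean share, the 3 most skewed in each direction among those of at least 1000 CPM, the 2 largest restricted to each organ, those with the largest difference of 1 sign in both donors (3 per direction, since none was called), those passing in both donors (up to 10), and 3 on each side of the threshold; a few are printed. Alternatives were the diversity and similarity measures, thresholds, pseudocounts, filters, the block, leaving out donors or samples and, added after seeing the data, leaving out barcodes of 1 library.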

Additional observations from a re-analysis of the deposited data

Results flagged for a closer look

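The percentage of clones with at least 100 CPM at baseline was higher among marrow-only than spleen-only clones in NSG recipients of both donors (by 20.1 and 17.0 points), and slightly lower in PTPRCA recipients of both (-1.06 and -1.46 points). The strains differed by 19.8 points, and at this limit both donors of a strain lay on the same side. That did not hold at 10 CPM, where the PTPRCA donors went opposite ways (2.2 and -4.32 points) and the strain difference was 8.41 points. It held at 300 CPM, with 5.49 and 19.1 points in NSG and -2.15 and -2.63 points in PTPRCA. Among BFP clones PTPRCA was positive in both donors (0.714 and 4.67 points). An exact permutation exchanging the strains within donors gave p = 0.5, the smallest it can give, and the choice of this comparison was made with the values in view. With clones classed by a more than 4-fold difference instead, 27.6% and 34.9% of clones lower in NSG spleen were that common at baseline, against 14.3% and 14.3% of those higher. In PTPRCA the donors went opposite ways, with 30.8% against 49.1% and 44.1% against 30.0%.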

How the results depend on the processing

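Without GFP_Barcode_52804 the mean log2 difference in effective number reversed to 0.0329 and the Bray-Curtis similarity fell from 0.744 to 0.634. As a Pearson correlation of log2 values, similarity was 0.569. Shared clones were 62.3% at 10 CPM and 52.1% at 1000 CPM, against 56.5%. Restricted clones were 6.68% with a limit of 10 CPM in the other organ and 0.0% among clones of 1000 CPM, against 1.37%. The 31.3% of clones more than 4-fold apart became 33.4% with a pseudocount of 1 CPM, 8.34% with 100 CPM, 23.8% from 1000 CPM, and 30.7% without barcodes of 1 library. Over 2-fold apart were 61.7% and over 16-fold 4.74%. The rank correlation, 0.52, was 0.572 from 10 CPM, 0.364 from 1000 CPM and 0.619 for clones in both organs. Of the 20 and 50 largest clones 57.5% and 57.0% were shared. The mean GFP difference, 0.0616, reversed to -1.03 without the largest clone of each pool and sample, and ranged from -0.0433 to 0.166 over single donors. The baseline difference, 18.5 points, was 7.35 at 10 CPM, 12.3 at 300 CPM, 11.5 in BFP and 27.6 in mCHERRY clones. The cause of these changes was not tested.

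With the donor as a replicate block limma called 0 clones, as in every other setting, including those leaving out 1 sample (4 to 10 clones then had an unadjusted p below 0.05). Of the alternative values of the main measures, 72 kept their direction and, where untested, lay within 1 SD, 21 moved further and 3 reversed. The 72 count the limma settings, in which 0 clones were called throughout. They also count values of single donors, which for untested measures always lie within 1 SD of a mean of 2 donors. Values of named clones were recomputed with pseudocounts of 1 and 100 CPM alone, which cannot change the sign of a difference. Of these values, 74 moved beyond counting error against 44 that did not. With 2 donors no permutation can pass 0.05, and limits of 3 reads rest on 5171235 to 10394809 reads.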
